A study of Mus musculus with 12 samples.

Results

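The Nr4a genes Nr4a1, Nr4a2 and Nr4a3 encode the NR4A group of nuclear receptors, and their transcripts were followed in polyribosomal RNA of the mouse hippocampus. The members were taken by gene symbol, and all 3 were found among the 24421 genes listed in the 12 count files. All 3 passed the filter on low counts that left 14564 genes for testing. The libraries came from 6-week-old C57/Bl6 mice and fall by their labels into 6 control and 6 fear case libraries, with no transgene or drug named in either group. The protocol text is the same for all 12 libraries: 8 min in an unfamiliar context, then 7 min in the home cage, and tissue collection 15 min after the start. What set the control mice apart is not given in the labels, nor is it stated whether a shock was given, so the groups are called by their labels here. Hippocampal lysates were layered on 1 molar sucrose and centrifuged for 4 h, and RNA of the pellet was sequenced. The pellet holds RNA bound to ribosomes and other RNA that sediments as fast, and the total RNA of the same lysates was not analysed here. The labels number the libraries but do not tie each to a mouse of its own, so p-values here reflect only how far these libraries differ, which may be technical.

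NR4A receptors are called orphan receptors because their ligand-binding pocket is closed by bulky side chains and no classical hormone ligand drives them. Their activity is therefore set largely by how much of each is made, and the genes are classical immediate early genes, switched on within minutes of calcium or cAMP signals through CREB and its CRTC coactivators. They bind the NBRE, a DNA element named after the NGFI-B protein that Nr4a1 encodes, as monomers, and the proteins of Nr4a1 and Nr4a2 also pair with the retinoid X receptors (RXR). In the hippocampus NR4A activity is known to be needed for long-term memory of contexts, and in the midbrain Nr4a2 (Nurr1) is needed for dopamine neurons to form.

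In the GRCm38 annotation (GENCODE vM21), Nr4a1 (Nur77; ENSMUSG00000023034.7) spans bases 101254269 to 101274795 of chromosome 15, plus strand. Nr4a2 (ENSMUSG00000026826.13) spans 57106830 to 57124003 of chromosome 2, minus strand. Nr4a3 (Nor1; ENSMUSG00000028341.9) spans 48045153 to 48086447 of chromosome 4, plus strand. Their annotated exons cover 3509, 4059 and 5987 bases, and none of these bases lies in an exon of another annotated gene, so reads of an antisense partner are not a source of these counts in that annotation. The 250 bases before the RefSeq start of each gene are shown because CREB, the best known inducer of the family, binds the cAMP response element (CRE, TGACGTCA) and its half-site TGACG. The sequences are RefSeq's of build GRCm38.p6, written 5′ to 3′ on the gene's strand, from chr15:101266596-101266845 (plus), chr2:57124004-57124253 (minus) and chr4:48045055-48045304 (plus). Of the Nr4a3 stretch the first 98 bases are printed (chr4:48045055-48045152), because the other 152 lie in an exon of a GENCODE transcript that starts further upstream; RefSeq also has Nr4a3 starting earlier, at 48045078. Nr4a1 likewise has an annotated start upstream of the one used. Capitals mark the half-site on either strand (TGACG or CGTCA).
Nr4a1: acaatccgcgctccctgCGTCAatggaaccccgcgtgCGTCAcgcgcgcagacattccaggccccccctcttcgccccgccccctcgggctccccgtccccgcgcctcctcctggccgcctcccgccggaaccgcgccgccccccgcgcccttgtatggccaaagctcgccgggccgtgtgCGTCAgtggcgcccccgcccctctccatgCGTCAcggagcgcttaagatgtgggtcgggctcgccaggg
Nr4a2: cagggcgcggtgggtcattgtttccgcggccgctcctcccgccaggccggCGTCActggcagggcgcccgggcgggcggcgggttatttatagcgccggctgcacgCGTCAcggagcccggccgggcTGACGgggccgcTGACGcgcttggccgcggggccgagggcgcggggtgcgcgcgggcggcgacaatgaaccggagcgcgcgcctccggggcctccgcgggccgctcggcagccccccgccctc
Nr4a3: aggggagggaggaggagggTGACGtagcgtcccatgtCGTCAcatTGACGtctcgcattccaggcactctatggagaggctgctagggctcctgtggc

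Each of the 3 stretches of 250 bases held 4 copies of the CRE half-site, counted on both strands. Of the 32851 promoter stretches of the same length, 17.8% held at least 1 copy and 0.137% held 4 or more. These shares were not matched for G and C content, which was 74.4% in Nr4a1, 80% in Nr4a2 and 63.6% in Nr4a3. Counted from the start, the copies lay between positions -233 and -36 in Nr4a1, -200 and -107 in Nr4a2, and -231 and -143 in Nr4a3, the last of them past the printed bases. The full CRE TGACGTCA was in none of the 3 stretches, nor were the NBRE (AAAGGTCA), the AP-1 site (TGANTCA) or the CArG box, which serum response factor binds. These were present in 1.55%, 1.34%, 6.75% and 1.47% of all stretches. Nr4a2 alone among the 3 held a match to the MEF2 site, at positions -167 to -158, which overlapped a TATA motif (TATAAA on either strand). The MEF2 site was found in 2.92% and the TATA motif in 12.4% of all stretches. A match is a description of letters in these windows and not a site shown to be used.

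The libraries held 18.6 M to 44.2 M gene counts (median 21.6 M), and fear case 6 was the deepest. Fear case 6 stood apart from the rest of its group: a chi-square of its gene counts against each other fear case library was 87.9 to 132.9 per degree of freedom, a measure that also grows with depth, against 8.09 to 34.1 between the other fear case libraries and 13.8 to 36.9 between controls. It also had the lowest TMM factor (0.908, the others 0.971 to 1.03). Without it the log2 fold changes (fear case over control) described below were 0.37 for Nr4a1, -0.042 for Nr4a2 and 0.22 for Nr4a3. Levels are given in CPM, read counts scaled to a common library size with TMM factors (mean ± SD, n = 6 per group). The 15 hippocampal excitatory neuron markers summed to 4168 to 4775 CPM in controls and 4289 to 4555 CPM in fear case. The highest was Camk2a, the calcium/calmodulin-dependent kinase of the synapse, at 2503 ± 170 CPM (control) and 2480 ± 73.0 CPM (fear case). Spink8 was the lowest, at 9.93 ± 2.35 and 9.16 ± 2.03 CPM. Th, the first enzyme of dopamine synthesis, stood at 0.470 ± 0.296 and 0.499 ± 0.233 CPM. The 17 choroid plexus markers, genes of the secretory epithelium of the ventricles, summed to 1077 to 2945 CPM in the controls and 102 to 2222 CPM in fear case. Of these 17, 16 were tested, all 16 were lower in fear case, 0 passed with edgeR, DESeq2 or limma-voom, and 15 had an unadjusted p under 0.05, where 4.52% of all genes were lower at that p. Their mean log2 CPM lay between 3.82 and 4.83 for the controls. Fear case 6 reached 4.51, while the other fear case libraries had -0.61 to 2.93.

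Nr4a3 was the most abundant member on polyribosomes, Nr4a2 came next and Nr4a1 was lowest, in all 12 libraries. Per kilobase of exon the control levels were 28.4 ± 4.06 CPM for Nr4a3, 21.7 ± 2.69 CPM for Nr4a2 and 9.09 ± 1.36 CPM for Nr4a1 (n = 6). In fear case they were 32.6 ± 2.33, 21.5 ± 2.36 and 11.5 ± 2.22 CPM per kilobase. The order of the 3 therefore stayed the same between the groups. As shares of the family's CPM, which are not per length and are compared only between the groups, Nr4a1 made up 11.0 ± 0.506% in controls and 12.5 ± 1.58% in fear case, Nr4a2 30.4 ± 1.19% and 27.1 ± 2.54%, and Nr4a3 58.6 ± 1.12% and 60.5 ± 2.76%.

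Among 49 nuclear receptor genes ordered by control CPM per kilobase, Nr4a3 was the second, Nr4a2 the fifth and Nr4a1 the 14th. The thyroid hormone receptor gene Thra led at 212 ± 18.1 CPM per kilobase. Nr4a3 did not stand apart from its neighbours beyond their spread: the clock repressor gene Nr1d1 was at 26.8 ± 3.001 and the mineralocorticoid receptor gene Nr3c2 at 26.6 ± 1.85. Nr4a2 likewise overlapped Nr1d2 (20.4 ± 1.51), and Nr4a1 overlapped Nr2f2 (9.15 ± 1.06). Nr1d1, Nr1d2 and Nr2f2 were named because they are next in this order, after their values were seen. Exons of Thra and Nr1d1 share 263 bases on opposite strands, and 247 bases of Nr3c2 lie in exons of an antisense transcript, so those levels are less certain than the Nr4a levels if counting ignored strand.

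**Figure D1:**
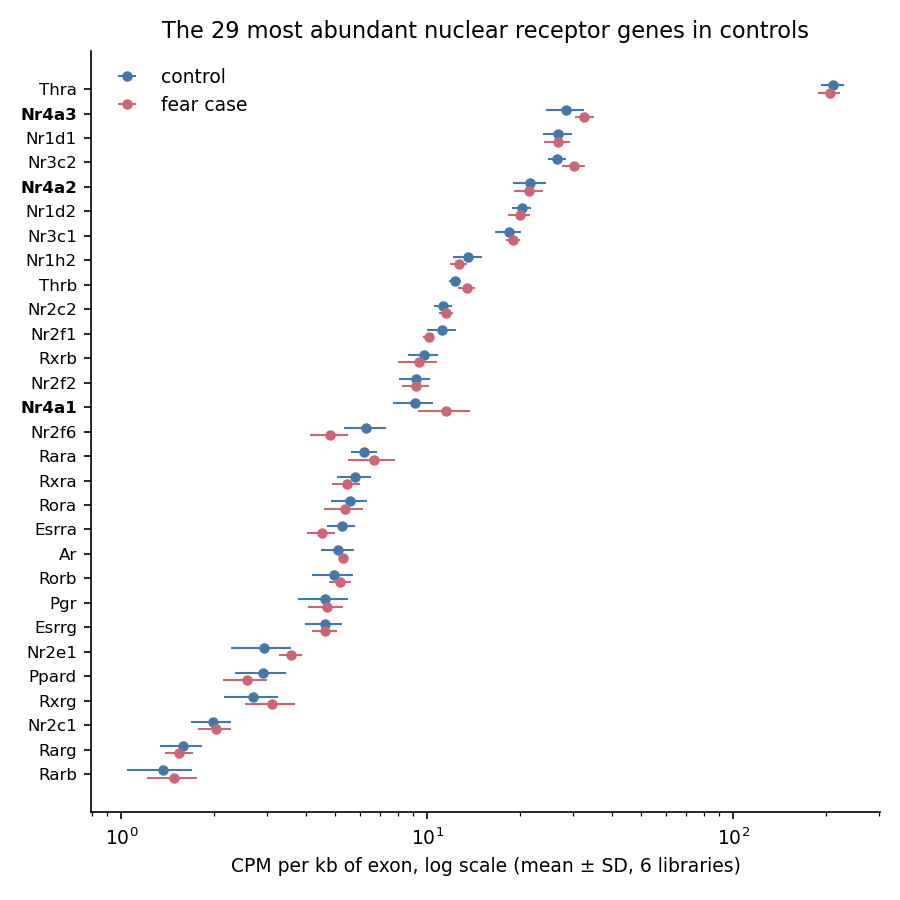
Level in CPM per kilobase of exon (log axis, mean ± SD, 6 libraries a group) of the 29 nuclear receptor genes highest in controls, in blue for control and red for fear case. Nr4a3 and Nr4a2 sit near the top behind Thra and Nr4a1 lies in the middle of the range, with its fear case point to the right of its control point.

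Across the groups Nr4a1 had the largest estimated difference of the 3, Nr4a3 a smaller one and Nr4a2 almost none, and 0 of the 3 passed the test over all genes (adjusted p under 0.05). Over all 14564 genes, 0.0481% were called higher and 0.0549% lower with edgeR's quasi-likelihood test. DESeq2 and limma-voom also called 0 of the 3. At an unadjusted p under 0.05, Nr4a1 and Nr4a3 were higher in fear case, as were 2.62% of all genes. Nr4a1 kept that p in 20 of 20 alternative settings and Nr4a3 in 14; Nr4a3 lost it with total counts (unadjusted p = 0.0643), with the choroid plexus score as covariate (0.0949), and without control 3 (0.0827), control 4 (0.0691), fear case 1 (0.0674) or fear case 4 (0.0505), all with edgeR. For none of the 3 did all fear case libraries lie above all controls, which was the case for 0.268% of all genes. In bulk tissue a higher level in every cell and more cells with the transcript cannot be told apart.

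Nr4a1 ranged from 26.2 CPM in control 3 to 37.43 CPM in control 6, with a median of 32.0. In fear case it ranged from 33.8 CPM in fear case 5 to 55.7 CPM in fear case 1, with a median of 38.3. The groups overlapped: 3 of 6 fear case libraries lay above every control, and fear case 4 at 37.37 CPM fell just short. The means were 31.9 ± 4.78 and 40.4 ± 7.78 CPM, giving a log2 fold change of 0.34 with a 95% interval of 0.10 to 0.58 (SE 0.12, adjusted p = 0.452), or 1.27-fold (1.07 to 1.49). Fear case 1 stood apart, and without it the fear case mean was 37.4 CPM and the log2 fold change 0.23 (adjusted p = 0.638). The lowest count behind these values was 535 reads, a counting error of 4.32%, against a spread between libraries of 15.0% in controls and 19.2% in fear case.

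Nr4a2 ranged from 75.6 to 105 CPM in the controls, with a median of 85.8, and from 75.3 to 96.9 CPM in fear case, with a median of 90.6. The ranges covered each other, with control 5 highest of all 12 and fear case 3 and 5 a little below the lowest control. The means were 87.9 ± 10.9 and 87.3 ± 9.58 CPM, giving a log2 fold change of -0.0090 with a 95% interval of -0.19 to 0.17 (SE 0.087, adjusted p = 0.992). On the linear scale the interval ran from 0.877-fold to 1.13-fold. Its sign turned in several alternative fits, so no direction is given for Nr4a2.

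Nr4a3 ranged from 136 to 205 CPM in the controls, with a median of 173, and from 179.7 to 216 CPM in fear case, with a median of 194.9. Fear case libraries filled the upper part of the control range, and only fear case 1 exceeded the highest control. The means were 170 ± 24.3 and 195.1 ± 14.0 CPM, giving a log2 fold change of 0.20 with a 95% interval of 0.025 to 0.37 (SE 0.084, adjusted p = 0.613), or 1.15-fold (95% interval 1.02 to 1.29). The library-to-library spread of Nr4a3 was 14.3% in controls and 7.16% in fear case.

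**Figure D2:**
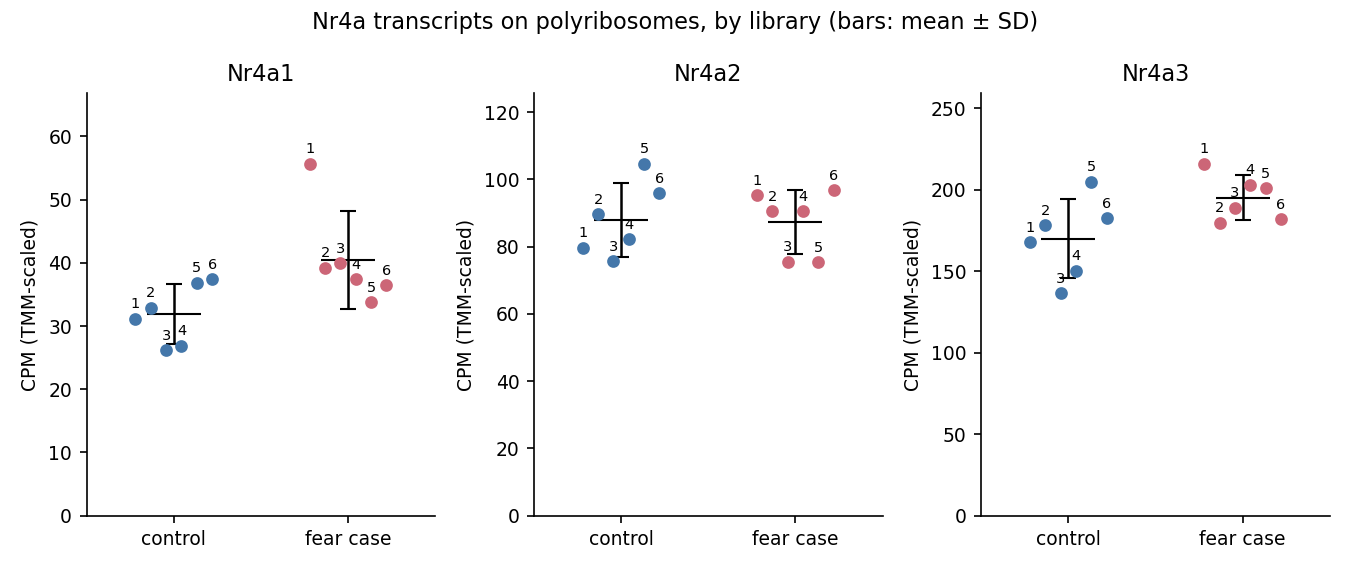
CPM of Nr4a1, Nr4a2 and Nr4a3 (vertical axes from 0) in the 12 libraries, with the library number above each point and the mean ± SD in black, control in blue and fear case in red. Nr4a1 of fear case 1 stands alone at 55.7 CPM, the Nr4a2 ranges cover each other, and Nr4a3 of fear case lies in the upper part of the control range.

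The choroid plexus markers and the share of counts that fell on no gene also varied between libraries, and each was added to the fit in turn. Apart from fear case 6, every fear case library lay below all controls in the mean log2 CPM of the choroid plexus markers. A fit with that mean can therefore tell it apart from the group only in part. Without it the SE was 0.12 for Nr4a1, 0.087 for Nr4a2 and 0.084 for Nr4a3, and with it each SE was larger. Adding the mean log2 CPM of the choroid plexus markers gave log2 fold changes of 0.37 for Nr4a1 (SE 0.16, adjusted p = 0.641), 0.017 for Nr4a2 (SE 0.12, adjusted p = 0.986) and 0.21 for Nr4a3 (SE 0.12, adjusted p = 0.699). The share of counts on no gene was lowest in fear case 1 (25.5%) and control 5 (26.8%), against 29.1% to 33.3% in the other 10 libraries. These are the libraries highest for Nr4a1 and Nr4a3 within fear case and for Nr4a2 and Nr4a3 within the controls. With that share as a covariate, an alternative chosen after seeing the data, the log2 fold changes were 0.35 (adjusted p = 0.167), 0.0054 (adjusted p = 0.992) and 0.21 (adjusted p = 0.452) for Nr4a1, Nr4a2 and Nr4a3.

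Whether the members shifted by different amounts was asked with ratios within a library, which do not depend on library scaling. The log2 ratio of Nr4a1 to Nr4a2 averaged -1.46 ± 0.100 for the 6 controls and -1.12 ± 0.235 for the 6 fear case libraries. It was higher by 0.34 (SE 0.10), with an exact two-sided permutation p of 0.00649 over all relabellings of 6 against 6 libraries and an adjusted p of 0.0195 over the 3 ratios within the family. Over 6 ratios, the planned family, it was 0.00974, but the other 3 are ratios to Fos, a gene chosen for its known rise. The smallest p this design allows is 0.00216. The controls lay between -1.61 and -1.35, and 5 of 6 fear case libraries lay above them, from -1.28 in fear case 4 to -0.77 in fear case 1. Fear case 6 lay inside the control range at -1.41, and it is also the library that stood apart in gene counts, whose choroid plexus score was within the control range and whose depth was greatest. The part of these in the ratio was not tested. Leaving out fear case 1 gave a difference of 0.27 and leaving out fear case 6 one of 0.40, and the adjusted p over 3 ratios was 0.00649 to 0.0455 over the 12 libraries left out in turn.

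The log2 ratio of Nr4a3 to Nr4a2 was 0.95 ± 0.0824 in controls and 1.16 ± 0.192 in fear case, higher by 0.22 (SE 0.085, exact permutation p = 0.0303, adjusted p = 0.0455 over 3 ratios and 0.0364 over 6). Of the fear case libraries, 4 of 6 lay above all controls, while fear case 2 at 0.99 and fear case 6 at 0.91 did not. This call ended when any one of 9 of the 12 libraries was left out, with an adjusted p over 3 ratios of up to 0.0877, and it held only without control 1, fear case 2 or fear case 6. The log2 ratio of Nr4a1 to Nr4a3 was -2.41 ± 0.0729 in controls and -2.28 ± 0.212 in fear case, a difference of 0.13 (SE 0.092, exact permutation p = 0.199, adjusted p = 0.199). It ran from -2.57 in fear case 5 to -1.95 in fear case 1, on both sides of the control range. Without fear case 1 the difference was 0.060 (adjusted p = 0.407). Without fear case 5 it was 0.18, with an adjusted p of 0.0552 over 3 ratios and 0.0442 over 6. Nr4a1 thus stood higher relative to Nr4a2 in these fear case libraries than in these controls. A difference between Nr4a1 and Nr4a3 was not shown. The ratios were chosen with earlier results of these data known, so their p-values are no independent evidence. With the replicate block, tested by sign flips over 6 pairs, the adjusted p over 3 ratios was 0.188 for Nr4a1 to Nr4a2. That test cannot give an unadjusted p under 0.03125, and the replicate numbers are not stated to pair libraries.

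**Figure D3:**
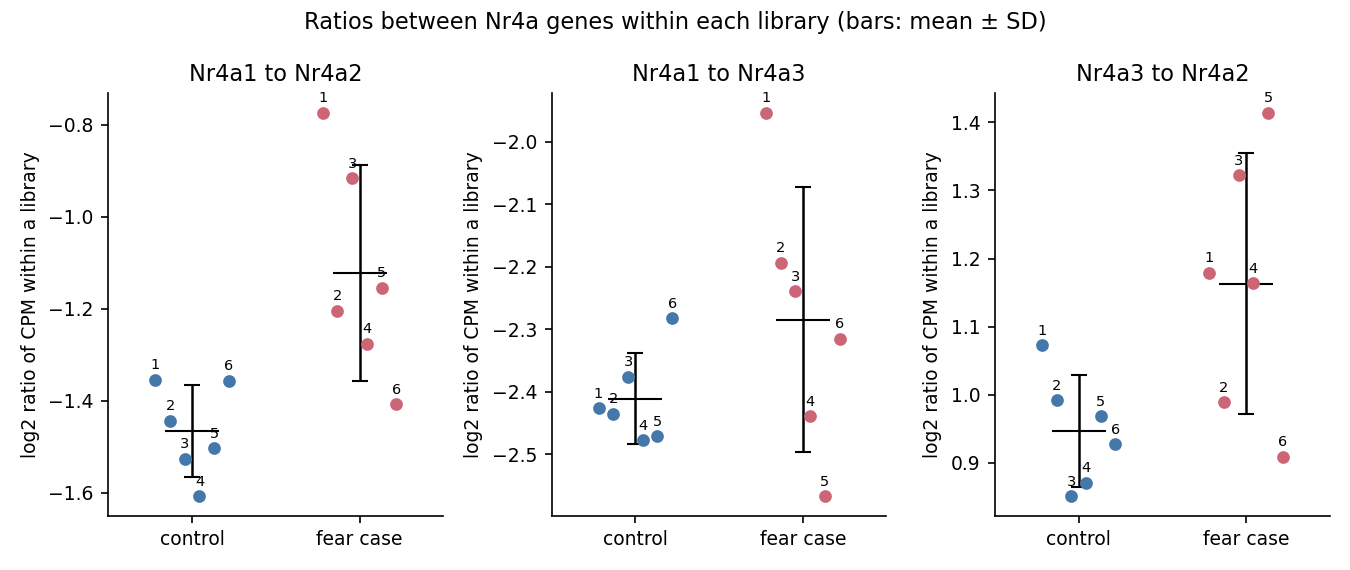
Log2 ratios of CPM between Nr4a genes within each library (vertical axes differ between panels and do not start at 0), numbered by library, with mean ± SD in black, control in blue and fear case in red. For Nr4a1 to Nr4a2, 5 of 6 fear case points lie above all controls and fear case 6 at -1.41 lies among them.

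Other rapid activity-induced genes served as the scale for these shifts. Fos, the AP-1 subunit, was chosen as comparator with its large rise already known. The log2 ratio of Nr4a1 to Fos was 2.91 ± 0.440 in controls and 0.996 ± 0.291 in fear case, a difference of -1.91 (SE 0.22). Those of Nr4a2 and Nr4a3 to Fos differed by -2.25 (SE 0.23) and -2.04 (SE 0.26). In each of these ratios the highest fear case library was under the lowest control. Since Fos was chosen for its rise, these are a description, with no test. In CPM, Fos went from 4.38 ± 1.60 to 20.9 ± 7.21, Npas4, a neuronal activity-dependent transcription factor, from 5.12 ± 1.34 to 21.4 ± 4.62, and Arc, a postsynaptic protein, from 87.6 ± 13.6 to 152.7 ± 24.02. Per kilobase of exon in controls, Nr4a3 (28.4 CPM) stood at the level of Arc (28.7 ± 4.46) and above Fos (1.86 ± 0.679) and Npas4 (1.24 ± 0.323).

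Of 34 tested rapid activity-induced genes other than Nr4a, 6 rose, 0 fell and 28 did not pass, where 0.0481% of all genes were called higher and 0.0549% lower. Their median log2 fold change was 0.13, beside -0.0046 over all tested genes, and 15 were higher and 1 lower at an unadjusted p under 0.05, as were 2.62% and 4.52% of all genes. The list holds genes known for their rise in earlier results of these data, so its count is no independent evidence. DESeq2 called 10 and limma-voom 6. With the 3 Nr4a genes added, Nr4a1 was the 14th of 37 by log2 fold change, Nr4a3 the 17th and Nr4a2 the 28th. Btg2, which acts in mRNA decay, was among the genes that rose, by 0.91 on the log2 scale (adjusted p = 0.000235). The AP-1 genes differed among themselves. Junb rose by 0.79 on the log2 scale (35.6 ± 6.10 to 61.4 ± 8.24 CPM, adjusted p = 0.000478) and Fosb by 1.03 (5.62 ± 1.02 to 11.5 ± 3.15 CPM, adjusted p = 0.00968), both named after their values were seen. Jun and Jund, the list's most abundant genes per length, did not pass: Jun was at -0.0053 on the log2 scale (adjusted p = 0.995) and Jund at -0.18 (adjusted p = 0.559).

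**Figure D4:**
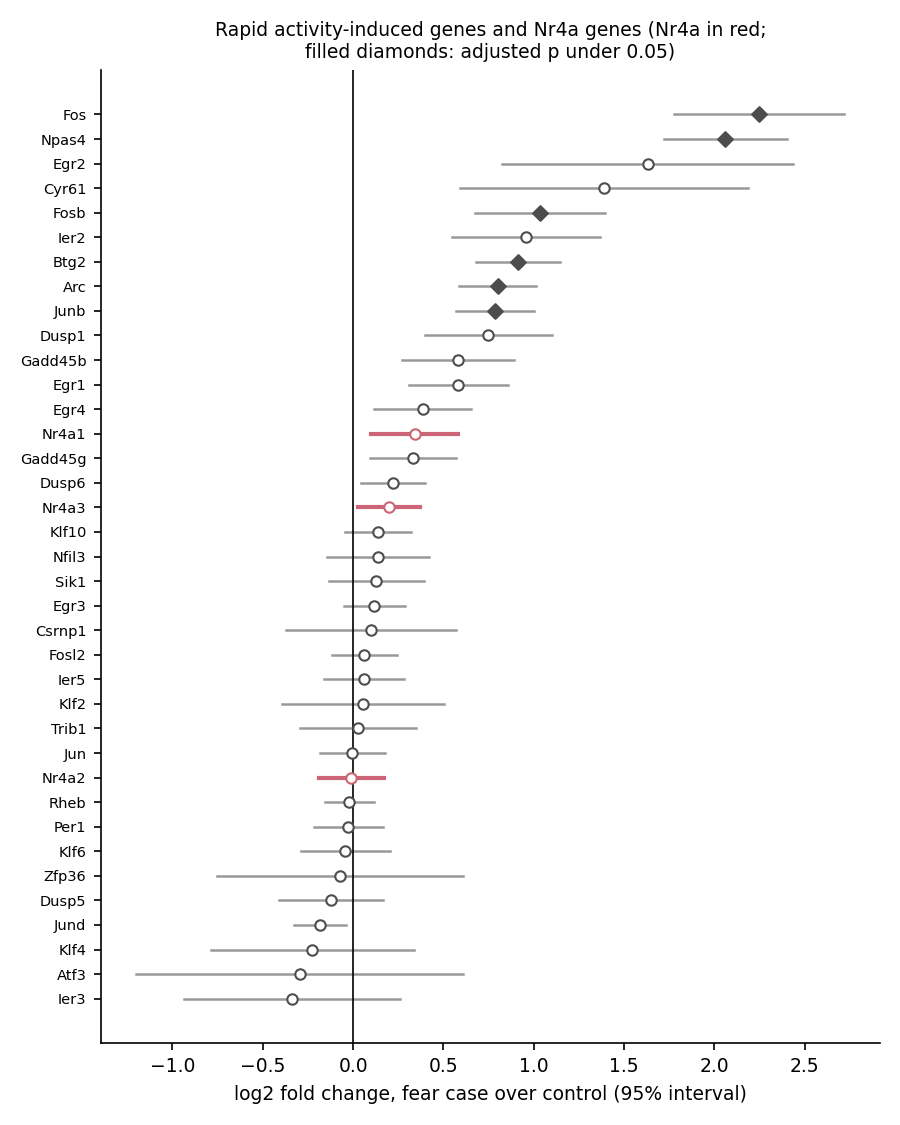
Log2 fold change of fear case over control with its 95% interval for 34 rapid activity-induced genes and the 3 Nr4a genes, in order of size. Filled diamonds passed an adjusted p of 0.05, and Nr4a1 (0.34), Nr4a3 (0.20) and Nr4a2 (-0.0090), in red, are open circles in the middle and lower part of the order.

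Variation among libraries of one group was compared next, since the members share inducers. Among the 6 controls the 3 genes went up and down together: Pearson's r of log2 CPM was 0.94 for Nr4a1 with Nr4a3 (exact permutation p = 0.00278, adjusted p over 6 relations 0.0167), 0.92 for Nr4a2 with Nr4a3 (p = 0.00833, adjusted 0.0250) and 0.89 for Nr4a1 with Nr4a2 (p = 0.0250, adjusted 0.05). Spearman's rho was 0.94, 0.94 and 0.89 (exact permutation p = 0.0167, 0.0167 and 0.0333, adjusted 0.05, 0.05 and 0.0667). Without the 2 libraries farthest from the median, r was 0.78, 0.75 and 0.91. Control 5 and control 6 were high and control 3 and control 4 low for all 3 genes except that control 1 was below control 4 for Nr4a2. Among the 6 fear case libraries r was 0.55, 0.0098 and 0.42 for the same pairs (exact permutation p = 0.258, 0.981 and 0.474, adjusted 0.388, 0.981 and 0.568). Spearman's rho there was 0.26, 0.086 and 0.20 (exact permutation p = 0.658, 0.919 and 0.714, adjusted 0.857, 0.919 and 0.857), and r without the 2 farthest libraries was -0.17, 0.083 and -0.83. Whether the correlations differ between the groups was not tested.

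The genes most like each member were taken by Pearson's r of log2 CPM after removing group means, over 12 libraries, among 13504 genes that averaged 1 CPM or more. For Nr4a1 they were Arc (r = 0.96), Ipo4 (0.95), Eef1a2 (0.94), Adar (0.93) and Egr1 (0.93), a zinc-finger immediate early gene. Arc stayed at r = 0.95 without fear case 1, the library highest for both. For Nr4a2 they were Spred1 (0.93) and Spred2 (0.90), which encode inhibitors of Ras-MAP kinase signalling, Hlf (0.91), Lancl3 (0.90) and Tshz2 (0.90). For Nr4a3 they were Ppp1r26 (0.92), Ints1 (0.92), Mpp2 (0.91), Jund (0.90) and Sox12 (0.90). The members themselves were further down each other's order, with r of 0.74 for Nr4a1 with Nr4a3, 0.64 for Nr4a1 with Nr4a2 and 0.61 for Nr4a2 with Nr4a3. In the order for Nr4a1, Nr4a3 was the 240th and Nr4a2 the 561st. In that for Nr4a2, Nr4a1 was the 647th and Nr4a3 the 809th. In that for Nr4a3, Nr4a1 was the 157th and Nr4a2 the 657th. The 12 points share depth and RNA composition within a library, so these values are a description.

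**Figure D5:**
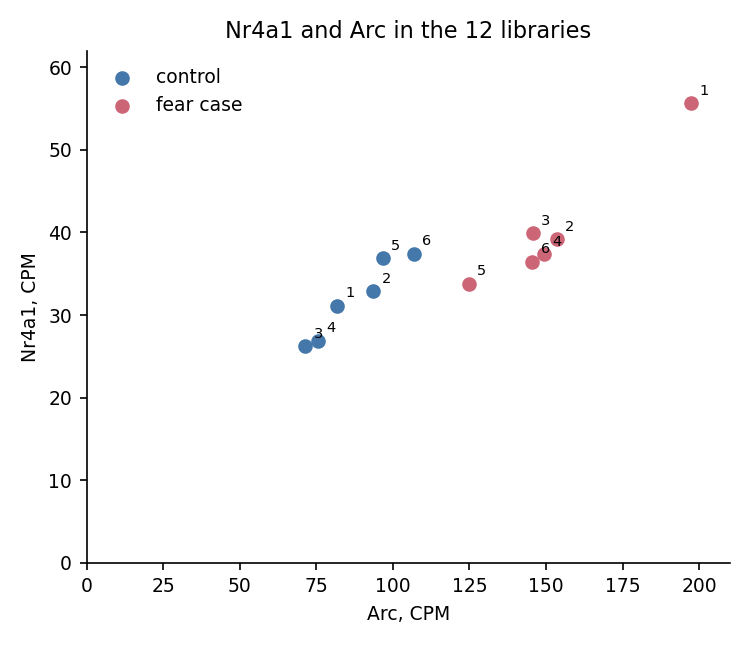
CPM of Nr4a1 against CPM of Arc in the 12 libraries, numbered within each group, control in blue and fear case in red, both axes from 0. Within each group the points rise together, and fear case 1, with 55.7 CPM of Nr4a1 and 197 CPM of Arc, lies far to the upper right.

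The genes listed as inducers of the family are given next. With 0.0481% of all genes called higher and 0.0549% lower, a count of 0 is near the background for lists of this size, here and in the lists that follow, and is no result about them. At an unadjusted p under 0.05 the shares over all genes were 2.62% higher and 4.52% lower. Of 12 tested CREB, CRTC and protein kinase A genes, 0 passed in either direction with edgeR, DESeq2 or limma-voom, and 0 had an unadjusted p under 0.05 (median log2 fold change 0.030). Examples were the protein kinase A catalytic subunit genes Prkaca at -0.047 (adjusted p = 0.910) and Prkacb at 0.098 (adjusted p = 0.777). Of 9 tested SRF and MEF2 genes 0 passed with any of the 3 tools. Mef2a, a calcium-responsive transcription factor gene, was the 1 gene with an unadjusted p under 0.05, at 0.18 (adjusted p = 0.597), and Mef2d was at 0.0069 (adjusted p = 0.992). Of 12 tested kinase and calcium signalling genes 0 passed with any tool and 0 had an unadjusted p under 0.05, with the calcineurin subunit gene Ppp3r1 at 0.062 (adjusted p = 0.868) and Camk2a at -0.013 (adjusted p = 0.982).

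Of the receptors' partners, 0 of 3 RXR genes passed with any tool or had an unadjusted p under 0.05. The 2 most abundant RXR genes had log2 fold changes of -0.095 for Rxra (31.8 ± 4.06 and 29.8 ± 3.15 CPM) and -0.057 for Rxrb (38.6 ± 4.39 and 37.2 ± 5.38 CPM), with adjusted p of 0.868 and 0.936. Of 17 tested corepressor, histone deacetylase and coactivator genes, 0 passed and 0 had an unadjusted p under 0.05, again with DESeq2 and limma-voom at 0. The corepressor gene Ncor1 was at 0.12 (adjusted p = 0.716) and the coactivator gene Ncoa1 at 0.13 (adjusted p = 0.737).

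Of 28 genes listed as Nr4a targets from other tissues and conditions, 21 were tested and 0 passed with edgeR, DESeq2 or limma-voom (10 positive, 11 negative, median log2 fold change -0.031). The glycolytic gene Pfkm was at 0.015 (adjusted p = 0.981) and the chaperone gene Hspa5 at 0.017 (adjusted p = 0.989). The 1 member with an unadjusted p under 0.05 was the cell cycle inhibitor gene Cdkn1c, whose level was 11.5 ± 2.83 CPM in the controls against 5.25 ± 3.87 CPM, or -1.10 on the log2 scale (SE 0.30, adjusted p = 0.237). The choroid plexus markers given above were lower in the same libraries, and their part in the Cdkn1c value was not tested. Of 7 midbrain dopamine neuron markers, the cells for which Nr4a2 is best known, 4 were tested and 0 passed with any tool or had an unadjusted p under 0.05. They summed to 3.01 to 5.45 CPM in controls and 3.66 to 6.23 CPM in fear case. Genes listed as markers of deep cortex, claustrum and subiculum, neighbouring regions where Nr4a2 is abundant, summed to 588 to 680 CPM and 617 to 685 CPM. In controls they ran from Nxph4 at 0.623 ± 0.514 CPM to Lmo3 at 129.6 ± 5.52 CPM. Whether each is particular to those regions was not tested, so the sum is no measure of such tissue. With any tool 0 of 16 passed. Of these 16, 2 were higher at an unadjusted p under 0.05, where 2.62% of all genes were (Lmo3 at 0.16, adjusted p = 0.542, and Fezf2 at 0.15, adjusted p = 0.644). Endothelial and mural markers summed to 62.6 to 76.7 CPM and 50.4 to 75.6 CPM, and microglia and macrophage markers to 64.7 to 122.8 CPM and 58.9 to 96.7 CPM. Of 14 tested markers in each of these lists 0 passed with any tool, with 1 (Tek, lower) and 0 at an unadjusted p under 0.05. Endothelial and mural markers had 12 negative and 2 positive log2 fold changes (median -0.21). Microglia and macrophage markers had 10 negative and 4 positive (median -0.090), beside a median of -0.0046 over all tested genes.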

How the data were processed

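Each library has 1 deposited file of raw read counts by gene symbol. Per the submitters' processing notes, the tools were HTSeq, TopHat, Bowtie and cutadapt with build mm10; their versions, the gene models and the strand setting were not given in these sources. Reads were 40 bp pairs, per the labels' protocols. The counter's summary lines stayed out of library sizes. Of the counts on a gene, on no gene or ambiguous between genes, 25.5% to 33.3% fell on no gene. Alignments that were not unique, 67.8 M to 115 M per library, are outside that share. Symbols were matched to GENCODE vM21 (23376 of 24421 found).

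The test was edgeR 4.0.16 (R 4.3.3): filterByExpr (minimum count 10, minimum total 15), TMM, glmQLFit and glmQLFTest without covariates on all 12 libraries, with Benjamini-Hochberg adjustment over 14564 genes. Intervals use the t distribution with the fit's total degrees of freedom. Log2 CPM used a prior count of 2. Ratios were compared by exact permutation over all relabellings. Alternatives were RLE scaling, total counts, no filter, DESeq2 1.42.0, limma-voom 3.58.1, a replicate block, covariates, a prior count of 0.5, and each library left out. The fits and permutation tests were tested on simulated data. Gene counts were 18.6 M to 44.2 M per library, which puts 535 or more reads behind each member's value.

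The members, lists and tests were chosen with earlier results of these data known. Genes named are the members, Fos, Npas4, Arc, up to 4 members of each list with the lowest unadjusted p under 0.05 and its 2 most abundant per length, and the 5 genes most like each member; others are said to be chosen after their values were seen. For lists already described by a sum or by other named members, not all of these are printed.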

Additional observations from a re-analysis of the deposited data

Results flagged for a closer look

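Nr4a1 in fear case 1 stood far from the other fear case libraries, at 55.7 CPM with the next library at 39.9 CPM, so that the gap took up a share of 0.720 of the group's whole range, more than Dixon's 95% critical value for 6 samples. It was the 1 library set apart in this way among 24 groups of values examined (6 genes and 6 ratios in each group of libraries), and chance alone flags about 1 in 20 such groups. The same library was highest in fear case for Nr4a3 (216 CPM), Fos (33.7 CPM), Npas4 (28.9 CPM) and Arc (197 CPM).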

How the results depend on the processing

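Over 20 alternative settings, Nr4a1 kept a positive log2 fold change (0.23 to 0.39) and Nr4a3 did too (0.14 to 0.26), and neither passed in any of them (adjusted p 0.167 to 0.709 and 0.452 to 0.844). Nr4a2 stayed between -0.048 and 0.047, which are also its lowest and highest values with 1 library left out; it turned positive with the choroid plexus score (0.017) or the share of counts on no gene (0.0054) as covariate, and without control 5, control 6, fear case 3 or fear case 5. Genes called higher numbered 7 and genes called lower 8. Higher genes were 11 without the low count filter and 13 with DESeq2, and 6 to 12 with 1 library left out. Lower genes were 26 with total counts, 26 without the filter, 50 with DESeq2, 5 with limma-voom and 3 to 116 with 1 library left out, the 116 without fear case 6 and the 3 without control 3 or fear case 2; the cause was not tested. With the choroid plexus score as covariate edgeR called 0 lower genes, with 599 at an unadjusted p under 0.05. The replicate numbers in the titles are not stated to pair libraries: same-numbered libraries correlated at -0.233 to 0.0943, and 1 of 6 controls correlated best with its own number. With the replicate block, tested by sign flips over 6 pairs, the ratio differences kept their size. The adjusted p over 6 ratios was 0.0938 for Nr4a1 to Nr4a2 (0.34) and 0.150 for Nr4a3 to Nr4a2 (0.22). Those 6 include the Nr4a1 (-1.91), Nr4a2 (-2.25) and Nr4a3 (-2.04) ratios to Fos. Fos's known rise fixed these in direction, so no p is given for them. The Nr4a1 to Nr4a3 ratio passed over 6 ratios without fear case 5 (0.18, adjusted p = 0.0442) and in no setting over 3. The sign-flip test of the replicate block cannot give an unadjusted p under 0.03125. The edgeR block fit gave 0.33, -0.0079 and 0.21 for Nr4a1, Nr4a2 and Nr4a3. With 1 library left out, the ratio difference was 0.27 to 0.40 for Nr4a1 to Nr4a2, 0.060 to 0.18 for Nr4a1 to Nr4a3, 0.17 to 0.27 for Nr4a3 to Nr4a2, and -2.01 to -1.75, -2.36 to -2.11 and -2.19 to -1.87 for the ratios to Fos. Adjusted over the 3 ratios within the family alone, the p was 0.0195 for Nr4a1 to Nr4a2, 0.0455 for Nr4a3 to Nr4a2 and 0.199 for Nr4a1 to Nr4a3. With the replicate block it was 0.188 for each of these 3. Counting error of the members was at most 4.32% in any library, taking reads as independent molecules.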

Other observations

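Among 37 tested nuclear receptor genes, Nr4a1 had the highest log2 fold change and Nr4a3 the fourth highest. These places were not set apart beyond the error of the fit. Nr4a1 was at 0.34 (SE 0.12) and Nr2e1, next in order, at 0.29 (SE 0.14). Nr4a3 at 0.20 (SE 0.084) lay between Rxrg at 0.20 (SE 0.16) and Nr3c2 at 0.18 (SE 0.070). Nr2e1 and Rxrg were named after their values were seen. Without fear case 1 Nr4a1 was at 0.23, and the order of the receptors was not worked out for that fit. Of the 34 other than Nr4a, 0 passed with edgeR, DESeq2 or limma-voom, and their median log2 fold change was 0.0053. At an unadjusted p under 0.05, where 2.62% of all genes were higher and 4.52% lower, Nr3c2, the mineralocorticoid receptor gene, was higher, from 172 ± 11.99 to 195.4 ± 17.0 CPM (log2 fold change 0.18, adjusted p = 0.559). At the same level Nr2f6, an orphan receptor gene, was lower, from 18.8 ± 2.97 to 14.3 ± 2.02 CPM (log2 fold change -0.39, adjusted p = 0.328), as was the metabolic regulator gene Esrra at -0.22 (adjusted p = 0.642).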
